A study of Mus musculus with 42 samples.

Results

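Imprinted genes are transcribed from the copy inherited from 1 parent. The genes described here came from a list of 49 well-known mouse imprinted genes, chosen by symbol; a gene counted if its row reached 0.5 CPM (reads of the gene scaled to a common library size) in at least 3 of the 42 libraries. The list was chosen with earlier results of these data known, so its shares set beside all genes are descriptive, not an independent test. Of the 49, 47 had a row and 45 met that rule, of 22186 genes in all. Kcnq1 and Snrpn reached 0.5 CPM in 0 libraries. Nespas and Rasgrf1 were not analysed here. The 45 genes lie in 19 domains. The expressed copy is listed as maternal for 20, paternal for 21, different between tissues for 2 (Grb10 and Blcap) and different between transcripts of the gene for 2 (Gnas and H13). Maternally and paternally expressed refer below to this listing. Which copy of each gene the cells studied here express was not measured.

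The study asked how the bisphenol A substitute bisphenol S (BPS), an endocrine disruptor, changes expression in cultured mouse cells of different kinds, with 3 RNA-seq libraries in each of 14 groups. BPS was dissolved in ethanol and given for 24 hours, and vehicle groups received ethanol alone. In the dose series, induced pluripotent stem cells (iPSCs) received vehicle or 1, 50 or 100 µM BPS. Sertoli cells (the somatic cells of the testis tubule) and granulosa cells (the somatic cells of the ovarian follicle) received 1 µM BPS or vehicle, and so did primordial germ cell-like cells (PGCLCs) exposed directly, called direct PGCLCs here. In the propagation experiment, iPSCs received 1 µM BPS or vehicle and PGCLCs were then derived from them without further exposure; these are called propagation iPSCs and derived PGCLCs. RNA was taken 24 hours after the exposure ended in iPSCs, Sertoli and granulosa cells and 8 hours after it in direct PGCLCs, while derived PGCLCs were collected once their differentiation was complete. All iPSCs and PGCLCs came from 1 male line, reprogrammed with a doxycycline-driven transgene of 4 factors from fibroblasts of 1 fetus and kept in 2i and LIF without feeder cells. PGCLCs were sorted for FUT4 and ITGB3. Sertoli and granulosa cells were primary cultures from pooled male and female littermates of postnatal day 20. Replicates were separate flasks of such a line or pool, or for PGCLCs separate batches of plates. Every p-value therefore measures the spread between cultures, not between animals. The reads do not separate the parental copies. In bulk RNA, fewer cells of a type and less RNA per cell cannot be told apart.

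Imprinting is set in the germ line. Sperm and eggs leave different DNA methylation at imprinting control regions, somatic cells keep those marks for life, and primordial germ cells erase them. Most imprinted genes sit in clusters in which 1 control region sets the activity of several genes, often with a long noncoding RNA on the opposite parental copy that silences its neighbours in cis. Many paternally expressed genes promote fetal growth and many maternally expressed genes restrain it. After fertilization, ZFP57 with TRIM28 holds methylation at most control regions by binding a methylated TGCCGC motif, and cultured pluripotent cells are known to gain or lose imprints.

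Libraries held 26693847 to 44524376 reads. Of the 45 genes, 28 reached 0.5 CPM in all 42 libraries. Pluripotency markers were present in every iPSC and PGCLC group and Sertoli and granulosa markers in their own cells, except that the Sertoli gene Rhox5 stayed under 0.5 CPM in vehicle Sertoli cells; granulosa vehicle libraries also had a summed CPM of 2241 to 2381 over the 10 Sertoli markers. In vehicle libraries, the 8 primordial germ cell (PGC) markers summed to 356.5 to 368.6 CPM in direct and 481.6 to 677.5 in derived PGCLCs. They summed to 388.8 to 409.1 in dose-series and 418.5 to 427.3 in propagation iPSCs. That sum therefore did not set direct PGCLCs above iPSCs. Fibroblast and stroma markers summed to 107.1 to 113.6 CPM in direct PGCLCs and 6.604 to 7.094 in dose-series iPSCs. The library farthest from its group was replicate 2 of the BPS-exposed propagation iPSCs. Its genes lay on average 0.295 log2 units from the group median, against 0.0945 to 0.220 in the other libraries. Results of that experiment are given with and without it. It was chosen to be left out because the most imprinted genes were called without it. Derived PGCLC vehicle replicate 2 had the 0.220, against 0.103 and 0.123 in its partners. In read counts, direct PGCLC vehicle replicate 1 differed from its partners by a mean chi-square per gene of 45.2 and 42.04, against 2.09 between them, and granulosa vehicle replicate 2 by 19.6 and 27.5, against 3.83. By the same measure, pairs of dose-series iPSC libraries at 1 µM differed by 28.2, 21.1 and 21.25, against 3.64 to 8.25 in their vehicle group. Igf2r, Airn, Dlk1, Meg3 and Rian each had a second row in the table, marked with a suffix and left out here unless stated. Its median share of both rows was 3.09% for Igf2r, 14.3% for Rian, 17.4% for Airn, 34.2% for Meg3 and 61.6% for Dlk1. The strand setting used in counting is not given in the sources used here. Reads of Airn and Igf2r, Kcnq1ot1 and Kcnq1, Nnat and Blcap, and Mest and Copg2, which overlap on opposite strands, may therefore be shared within each pair. Peg13 and Trappc9, and Mcts2 and H13, overlap on the same strand, so their reads may be shared under any strand setting.

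Promoters of 3 genes that changed with BPS are shown because each holds the ZFP57 motif and they moved in both directions in iPSCs. Each run is 300 bases from RefSeq (GRCm38.p6), 250 before the transcript start and 50 after it, 5′ to 3′ on the plus strand, which all 3 genes use. Capitals mark TGCCGC read on either strand, here GCGGCA throughout. They begin at base 161 for Plagl1 (chr10:13090582-13090881), at base 61 for Meg3 (chr12:109540746-109541045) and at bases 9 and 184 for Mest (chr6:30737800-30738099).
Plagl1: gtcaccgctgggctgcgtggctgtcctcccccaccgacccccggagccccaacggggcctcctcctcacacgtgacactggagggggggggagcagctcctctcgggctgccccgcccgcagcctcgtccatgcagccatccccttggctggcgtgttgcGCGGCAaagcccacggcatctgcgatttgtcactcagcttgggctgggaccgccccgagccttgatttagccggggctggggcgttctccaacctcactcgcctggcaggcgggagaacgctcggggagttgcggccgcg
Meg3: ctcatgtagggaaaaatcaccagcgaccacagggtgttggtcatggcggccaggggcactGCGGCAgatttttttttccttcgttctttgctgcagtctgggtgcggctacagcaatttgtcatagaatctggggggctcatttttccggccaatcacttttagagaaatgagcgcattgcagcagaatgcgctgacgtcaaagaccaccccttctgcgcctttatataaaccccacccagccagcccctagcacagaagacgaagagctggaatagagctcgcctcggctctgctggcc
Mest: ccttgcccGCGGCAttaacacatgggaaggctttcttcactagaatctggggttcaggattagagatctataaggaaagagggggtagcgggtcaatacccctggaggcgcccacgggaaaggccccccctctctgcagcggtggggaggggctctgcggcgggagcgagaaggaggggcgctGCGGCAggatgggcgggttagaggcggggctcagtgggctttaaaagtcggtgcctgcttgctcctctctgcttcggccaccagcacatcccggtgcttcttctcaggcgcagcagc
Windows of 36 of the 45 genes were used, 54 windows in all. The motif was in 12 of them (22.2%), belonging to 11 genes, and in 3813 of all 32851 windows (11.6%). Windows of a gene can overlap, as the Mest windows with the motif do, so the windows are not all distinct. The difference between these shares was not tested. The windows of Peg3 and Usp29, which share a bidirectional promoter, overlap by 263 bases. A match describes the letters only.

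Among the genes, 7 are hosts of microRNAs, 36 mature forms in RefSeq, of which 19 lie in Mirg, 6 in Rian and 3 in Meg3. Igf2, H19, Mest and Usp29 have 2 each. The forms below are shown because their hosts changed with BPS, with the seed (bases 2 to 8) in capitals. The 36 forms have 35 seeds, and the only shared one joins miR-453 and miR-496a-5p of Mirg.
miR-483-3p: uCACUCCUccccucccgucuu
miR-770-5p: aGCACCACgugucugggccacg
miR-370-3p: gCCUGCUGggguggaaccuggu
miR-453: aGGUUGCCucauagugagcuugca
miR-496a-5p: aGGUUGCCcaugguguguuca
miR-154-3p: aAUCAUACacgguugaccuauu
miR-410-3p: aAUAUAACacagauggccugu
miR-335-5p: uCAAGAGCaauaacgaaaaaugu
Hosts here are Igf2 for miR-483, Meg3 for miR-770, Rian for miR-370, Mest for miR-335 and Mirg for the rest. MicroRNAs themselves were not measured by these poly(A) libraries, only the transcripts of the host genes.

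In vehicle cells the imprinted genes had different levels between cell types. The highest mean was in derived PGCLCs for 14 genes, in granulosa cells for 11, in dose-series iPSCs for 7, in Sertoli cells and in direct PGCLCs for 6 each and in propagation iPSCs for 1. The same split was not counted over all genes, so these counts do not set the imprinted genes apart. With limma at an adjusted p of 0.05, 39 of 45 genes differed between derived PGCLCs and the propagation iPSCs they came from, 30 higher and 9 lower, where 73.3% of all genes differed, 35.9% higher and 37.4% lower. The median log2 fold change was 1.06 over the 45 genes, against -0.01 over all genes. Of 8 fibroblast and stroma markers, 6 were also higher (summed CPM 337 to 509 in derived PGCLCs, 4.38 to 5.31 in propagation iPSCs). The paternally expressed genes had a median of 2.35, with 16 of 21 higher and 4 lower, and the maternally expressed genes had a median of 0.28, with 10 of 20 higher and 5 lower. Sertoli cells differed from granulosa cells in 37 genes, 13 higher and 24 lower (69.6% of all genes, 33.7% higher and 35.9% lower), and all 8 fibroblast and stroma markers were lower (summed CPM 2098 to 2239 in Sertoli cells, 6579 to 6875 in granulosa cells). The part of these markers in either difference was not tested. Both differed from dose-series iPSCs in 42 genes. For Sertoli cells 19 were higher and 23 lower (89.1% of all genes, 43.7% higher and 45.4% lower), and for granulosa cells 22 were higher and 20 lower (88.4%). Derived and direct PGCLCs differed in 27 genes, 17 higher and 10 lower (42.5%, 22.7% higher and 19.9% lower), and propagation and dose-series iPSCs in 20 genes, 3 higher and 17 lower (28.1%, 15.8% higher and 12.3% lower). Apart from derived PGCLCs against propagation iPSCs, which come from 1 experiment, cell type or culture and experiment cannot be told apart. Values below are mean CPM ± SD (n = 3), and every log2 fold change listed after them passed the test. Of the 207 calls between vehicle groups, 21 were lost without at least 1 library. Slc22a18 between derived PGCLCs and propagation iPSCs and Zrsr1 between the iPSC groups were lost without each of 6 libraries in turn. The others were H19, Cdkn1c, Tspan32 and Trappc9 for Sertoli against granulosa cells, Copg2 for Sertoli cells against iPSCs, Copg2, Zim1 and Trappc9 for derived PGCLCs against propagation iPSCs, Mirg and Ube3a for propagation against dose-series iPSCs, and Peg10, Sgce, Ppp1r9a, Nnat, Mcts2, H13, Zrsr1, Zdbf2 and Trappc9 for derived against direct PGCLCs, with adjusted p values of up to 0.269.

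**Figure D1:**
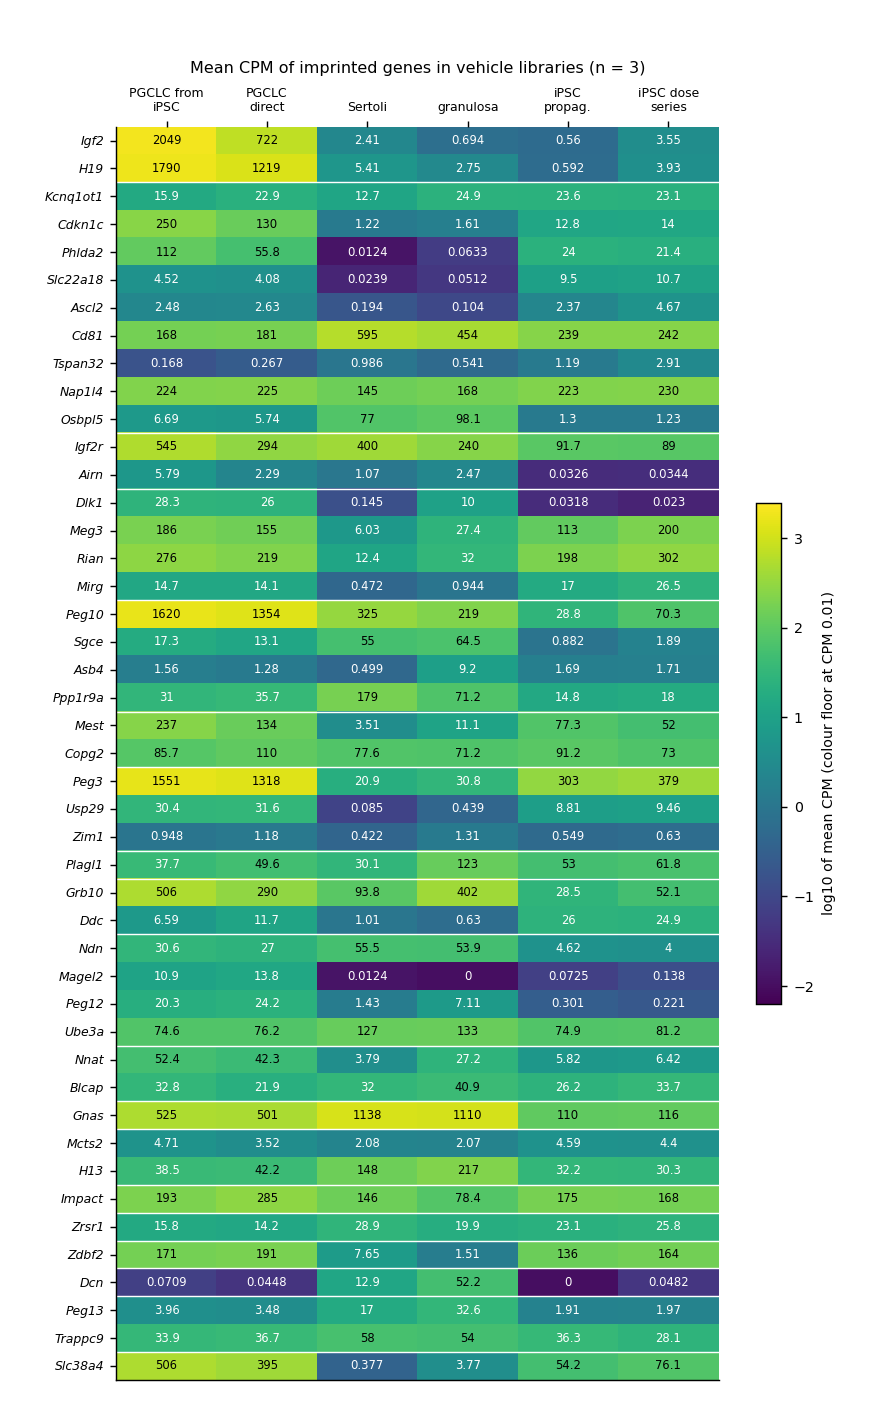
Mean CPM of the imprinted genes (rows, by domain) in the 6 vehicle groups (columns, n = 3 each), printed in each cell and coloured by its log10. Igf2, H19, Peg10 and Peg3 are at their highest in both kinds of PGCLC, and Meg3, Rian and Mirg are at their lowest in Sertoli and granulosa cells.

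The growth factor locus differed widely between cells. Igf2 (chr7:142650768-142666816), the paternally expressed fetal growth factor, had 2049 ± 330.0 CPM in derived PGCLCs, 722 ± 5.17 in direct PGCLCs, 2.41 ± 0.25 in Sertoli cells, 0.694 ± 0.201 in granulosa cells, 0.561 ± 0.0476 in propagation iPSCs and 3.55 ± 0.358 in dose-series iPSCs. All 3 libraries of each PGCLC group lay far above every other library. Log2 fold changes of Igf2 were 11.75 for derived PGCLCs over propagation iPSCs, 1.49 for derived over direct PGCLCs, 1.79 for Sertoli over granulosa cells, -0.55 for Sertoli cells over iPSCs, -2.34 for granulosa cells over iPSCs and -2.59 for propagation over dose-series iPSCs. H19 (chr7:142575530-142578146), the maternally expressed noncoding RNA next to it that shares its enhancers, had 1790.0 ± 166 CPM in derived PGCLCs, 1219 ± 17.5 in direct PGCLCs, 5.41 ± 2.57 in Sertoli cells, 2.75 ± 0.297 in granulosa cells, 0.592 ± 0.188 in propagation iPSCs and 3.93 ± 1.38 in dose-series iPSCs. H19 gave log2 fold changes of 11.53 for derived PGCLCs over propagation iPSCs, 0.87 for Sertoli over granulosa cells and -2.65 for propagation over dose-series iPSCs. Both genes of this reciprocal pair were thus highest in PGCLCs and lowest in propagation iPSCs. Igf2r (chr17:12682406-12769706), the maternally expressed receptor that carries IGF2 to lysosomes, had 545 ± 67.4 CPM in derived PGCLCs, 294 ± 2.79 in direct PGCLCs, 399.7 ± 18.5 in Sertoli cells, 239.9 ± 3.16 in granulosa cells, 91.7 ± 2.38 in propagation iPSCs and 89.01 ± 3.94 in dose-series iPSCs. For Igf2r the log2 fold changes were 2.56 for derived PGCLCs over propagation iPSCs, 0.88 for derived over direct PGCLCs, 0.74 for Sertoli over granulosa cells, 2.17 for Sertoli cells over iPSCs and 1.43 for granulosa cells over iPSCs. Airn (chr17:12741311-12859884), the paternal antisense RNA that silences Igf2r, had 5.79 ± 1.28 CPM in derived PGCLCs, 2.29 ± 0.199 in direct PGCLCs, 1.07 ± 0.264 in Sertoli cells, 2.47 ± 0.0162 in granulosa cells, 3 reads over the 3 libraries in propagation iPSCs and 3 reads over the 3 libraries in dose-series iPSCs. In the groups with more reads, Airn gave log2 fold changes of 1.31 for derived over direct PGCLCs and -1.21 for Sertoli over granulosa cells.

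In the Kcnq1ot1 cluster of chromosome 7, Cdkn1c and Phlda2, which restrain growth, were highest in derived PGCLCs and lowest in Sertoli and granulosa cells. Kcnq1ot1 (chr7:143213111-143296547), the paternal noncoding RNA that silences the cluster, had 15.9 ± 1.18 CPM in derived PGCLCs, 22.9 ± 2 in direct PGCLCs, 12.7 ± 1.11 in Sertoli cells, 24.9 ± 1.39 in granulosa cells, 23.6 ± 1.5 in propagation iPSCs and 23.1 ± 2.64 in dose-series iPSCs. Log2 fold changes of Kcnq1ot1 were -0.57 for derived PGCLCs over propagation iPSCs, -0.52 for derived over direct PGCLCs, -0.98 for Sertoli over granulosa cells and -0.86 for Sertoli cells over iPSCs. Cdkn1c (chr7:143458339-143461059), which encodes the cell cycle inhibitor p57, had 250.1 ± 54.7 CPM in derived PGCLCs, 130.4 ± 3.28 in direct PGCLCs, 1.22 ± 0.356 in Sertoli cells, 1.61 ± 0.02 in granulosa cells, 12.8 ± 0.521 in propagation iPSCs and 13.97 ± 0.533 in dose-series iPSCs. Cdkn1c gave log2 fold changes of 4.27 for derived PGCLCs over propagation iPSCs, 0.92 for derived over direct PGCLCs, -0.43 for Sertoli over granulosa cells, -3.52 for Sertoli cells over iPSCs and -3.09 for granulosa cells over iPSCs. Phlda2 (chr7:143501545-143503145), a brake on placental growth, had 112 ± 16.2 CPM in derived PGCLCs, 55.8 ± 1.95 in direct PGCLCs, 1 read over the 3 libraries in Sertoli cells, 0.0633 ± 0.0317 in granulosa cells, 24.02 ± 0.714 in propagation iPSCs and 21.4 ± 1.33 in dose-series iPSCs. In Phlda2 the log2 fold changes were 2.20 for derived PGCLCs over propagation iPSCs, 0.99 for derived over direct PGCLCs and -7.88 for granulosa cells over iPSCs. Slc22a18, a membrane transporter gene, had 4.52 ± 0.375 CPM in derived PGCLCs, 4.08 ± 0.261 in direct PGCLCs, 2 reads over the 3 libraries in Sertoli cells, 0.0512 ± 0.0888 in granulosa cells, 9.50 ± 0.486 in propagation iPSCs and 10.7 ± 0.639 in dose-series iPSCs. Slc22a18 gave log2 fold changes of -1.07 for derived PGCLCs over propagation iPSCs and -7.56 for granulosa cells over iPSCs. Ascl2, a transcription factor gene needed for trophoblast, had 2.48 ± 0.264 CPM in derived PGCLCs, 2.64 ± 0.239 in direct PGCLCs, 0.194 ± 0.167 in Sertoli cells, 0.104 ± 0.0429 in granulosa cells, 2.37 ± 0.404 in propagation iPSCs and 4.68 ± 0.744 in dose-series iPSCs. Ascl2 gave log2 fold changes of -4.70 for Sertoli cells over iPSCs and -5.16 for granulosa cells over iPSCs. The other genes of the cluster differed in where they were high. Cd81, a tetraspanin gene, had 168 ± 5.71 CPM in derived PGCLCs (lowest) and 595 ± 11.6 CPM in Sertoli cells (highest). Cd81 gave log2 fold changes of -0.51 for derived PGCLCs over propagation iPSCs, -0.11 for derived over direct PGCLCs, 0.39 for Sertoli over granulosa cells, 1.30 for Sertoli cells over iPSCs and 0.91 for granulosa cells over iPSCs. Osbpl5, an oxysterol-binding protein gene, had 98.1 ± 3.11 CPM in granulosa cells (highest) and 1.23 ± 0.0273 CPM in dose-series iPSCs (lowest). Osbpl5 gave log2 fold changes of 2.33 for derived PGCLCs over propagation iPSCs, -0.35 for Sertoli over granulosa cells, 5.93 for Sertoli cells over iPSCs and 6.28 for granulosa cells over iPSCs. Nap1l4, a histone chaperone gene, had 145 ± 8.42 CPM in Sertoli cells (lowest) and 229.7 ± 4.75 CPM in dose-series iPSCs (highest). Nap1l4 gave log2 fold changes of -0.22 for Sertoli over granulosa cells, -0.66 for Sertoli cells over iPSCs and -0.45 for granulosa cells over iPSCs. Tspan32, a second tetraspanin gene of low level, had 0.168 ± 0.00438 CPM in derived PGCLCs (lowest) and 2.91 ± 0.758 CPM in dose-series iPSCs (highest). Tspan32 gave log2 fold changes of -2.59 for derived PGCLCs over propagation iPSCs, 0.85 for Sertoli over granulosa cells, -1.53 for Sertoli cells over iPSCs, -2.37 for granulosa cells over iPSCs and -1.26 for propagation over dose-series iPSCs.

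Meg3, Rian and Mirg are maternally expressed noncoding RNAs of the Dlk1-Dio3 cluster on chromosome 12, transcribed from the copy that does not express Dlk1. They were high in iPSCs and PGCLCs and low in both somatic cell types. Meg3 (chr12:109540996-109571729) had 186 ± 8.89 CPM in derived PGCLCs, 155 ± 2.23 in direct PGCLCs, 6.03 ± 0.25 in Sertoli cells, 27.4 ± 1.24 in granulosa cells, 113 ± 9.37 in propagation iPSCs and 199.8 ± 15.4 in dose-series iPSCs. Meg3 gave log2 fold changes of 0.72 for derived PGCLCs over propagation iPSCs, 0.27 for derived over direct PGCLCs, -2.18 for Sertoli over granulosa cells, -5.04 for Sertoli cells over iPSCs, -2.86 for granulosa cells over iPSCs and -0.82 for propagation over dose-series iPSCs. Rian (chr12:109603945-109661716), a host of small nucleolar RNAs and microRNAs, had 276 ± 2.44 CPM in derived PGCLCs, 219 ± 2.44 in direct PGCLCs, 12.4 ± 1.33 in Sertoli cells, 31.99 ± 0.318 in granulosa cells, 198 ± 4.5 in propagation iPSCs and 302 ± 11 in dose-series iPSCs. For Rian the log2 fold changes were 0.48 for derived PGCLCs over propagation iPSCs, 0.33 for derived over direct PGCLCs, -1.38 for Sertoli over granulosa cells, -4.61 for Sertoli cells over iPSCs, -3.24 for granulosa cells over iPSCs and -0.61 for propagation over dose-series iPSCs. Mirg (chr12:109734981-109749458), the microRNA host, had 14.7 ± 1.92 CPM in derived PGCLCs, 14.1 ± 0.24 in direct PGCLCs, 0.472 ± 0.21 in Sertoli cells, 0.944 ± 0.19 in granulosa cells, 16.97 ± 1.95 in propagation iPSCs and 26.5 ± 3.03 in dose-series iPSCs. For Mirg they were -1.02 for Sertoli over granulosa cells, -5.80 for Sertoli cells over iPSCs, -4.78 for granulosa cells over iPSCs and -0.64 for propagation over dose-series iPSCs. Dlk1 (chr12:109452485-109463336), the paternally expressed ligand of this cluster, had 28.3 ± 3.43 CPM in derived PGCLCs, 25.99 ± 2.52 in direct PGCLCs, 0.145 ± 0.0543 in Sertoli cells, 10.02 ± 0.884 in granulosa cells, 3 reads over the 3 libraries in propagation iPSCs and 2 reads over the 3 libraries in dose-series iPSCs. Granulosa and PGCLC libraries thus held Dlk1 at many times the few reads of iPSCs. Dlk1 gave a log2 fold change of -5.87 for Sertoli over granulosa cells.

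On chromosome 6, Peg10 (chr6:4747306-4760517), a retrotransposon-derived gene needed for the placenta, had 1620.0 ± 292 CPM in derived PGCLCs, 1354 ± 22.9 in direct PGCLCs, 325 ± 17.5 in Sertoli cells, 219 ± 10.8 in granulosa cells, 28.8 ± 1.46 in propagation iPSCs and 70.3 ± 7.64 in dose-series iPSCs. Log2 fold changes of Peg10 were 5.80 for derived PGCLCs over propagation iPSCs, 0.24 for derived over direct PGCLCs, 0.57 for Sertoli over granulosa cells, 2.21 for Sertoli cells over iPSCs, 1.64 for granulosa cells over iPSCs and -1.28 for propagation over dose-series iPSCs. Sgce (chr6:4674350-4747204), the sarcoglycan gene that shares its promoter region with Peg10 on the other strand, had 17.3 ± 2.89 CPM in derived PGCLCs, 13.1 ± 0.519 in direct PGCLCs, 55.03 ± 1.65 in Sertoli cells, 64.6 ± 2.23 in granulosa cells, 0.882 ± 0.209 in propagation iPSCs and 1.89 ± 0.25 in dose-series iPSCs. For Sgce they were 4.26 for derived PGCLCs over propagation iPSCs, 0.39 for derived over direct PGCLCs, 4.85 for Sertoli cells over iPSCs, 5.08 for granulosa cells over iPSCs and -1.10 for propagation over dose-series iPSCs. The pair was lowest in iPSCs, with Peg10 highest in PGCLCs and Sgce highest in granulosa cells. Ppp1r9a, which encodes the actin-binding protein neurabin, had 179 ± 6.83 CPM in Sertoli cells (highest) and 14.9 ± 0.78 CPM in propagation iPSCs (lowest). Ppp1r9a gave log2 fold changes of 1.06 for derived PGCLCs over propagation iPSCs, -0.21 for derived over direct PGCLCs, 1.33 for Sertoli over granulosa cells, 3.31 for Sertoli cells over iPSCs, 1.99 for granulosa cells over iPSCs and -0.27 for propagation over dose-series iPSCs. Asb4, an ankyrin repeat gene, had 0.499 ± 0.143 CPM in Sertoli cells (lowest) and 9.20 ± 1.24 CPM in granulosa cells (highest). Asb4 gave log2 fold changes of -4.15 for Sertoli over granulosa cells, -1.75 for Sertoli cells over iPSCs and 2.40 for granulosa cells over iPSCs. Mest (chr6:30733506-30748466), a paternally expressed hydrolase-like gene, had 237 ± 15.4 CPM in derived PGCLCs, 134 ± 1.68 in direct PGCLCs, 3.51 ± 0.812 in Sertoli cells, 11.1 ± 0.164 in granulosa cells, 77.3 ± 3.28 in propagation iPSCs and 52.01 ± 2.46 in dose-series iPSCs. Mest gave log2 fold changes of 1.62 for derived PGCLCs over propagation iPSCs, 0.83 for derived over direct PGCLCs, -1.68 for Sertoli over granulosa cells, -3.90 for Sertoli cells over iPSCs, -2.22 for granulosa cells over iPSCs and 0.57 for propagation over dose-series iPSCs. Copg2, a vesicle coat subunit gene that overlaps the end of Mest, had 109.9 ± 3.94 CPM in direct PGCLCs (highest) and 71.2 ± 1.52 CPM in granulosa cells (lowest). Copg2 gave log2 fold changes of -0.09 for derived PGCLCs over propagation iPSCs, -0.36 for derived over direct PGCLCs, 0.12 for Sertoli over granulosa cells, 0.09 for Sertoli cells over iPSCs and 0.32 for propagation over dose-series iPSCs.

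The zinc finger genes differed in where they were high. Peg3 (chr7:6703892-6730462), paternally expressed, had 1551 ± 162 CPM in derived PGCLCs, 1318 ± 33.8 in direct PGCLCs, 20.9 ± 1.19 in Sertoli cells, 30.8 ± 1.5 in granulosa cells, 303 ± 15.3 in propagation iPSCs and 379 ± 12.5 in dose-series iPSCs. Log2 fold changes of Peg3 were 2.35 for derived PGCLCs over propagation iPSCs, 0.23 for derived over direct PGCLCs, -0.56 for Sertoli over granulosa cells, -4.18 for Sertoli cells over iPSCs, -3.62 for granulosa cells over iPSCs and -0.32 for propagation over dose-series iPSCs. Usp29, its paternally expressed partner on the other strand, had 31.7 ± 1.56 CPM in direct PGCLCs (highest) and 0.0850 ± 0.0163 CPM in Sertoli cells (lowest). Usp29 gave log2 fold changes of 1.77 for derived PGCLCs over propagation iPSCs, -2.02 for Sertoli over granulosa cells, -6.36 for Sertoli cells over iPSCs and -4.34 for granulosa cells over iPSCs. Zim1, a maternally expressed neighbour of low level, had 0.422 ± 0.175 CPM in Sertoli cells (lowest) and 1.31 ± 0.173 CPM in granulosa cells (highest). Zim1 gave log2 fold changes of 0.72 for derived PGCLCs over propagation iPSCs, -1.62 for Sertoli over granulosa cells and 1.03 for granulosa cells over iPSCs. Plagl1 (chr10:13090832-13131694), a zinc finger factor that restrains proliferation, was highest in granulosa cells and had 37.7 ± 4.45 CPM in derived PGCLCs, 49.6 ± 0.957 in direct PGCLCs, 30.1 ± 1.18 in Sertoli cells, 123 ± 4.34 in granulosa cells, 53 ± 1.28 in propagation iPSCs and 61.8 ± 1.95 in dose-series iPSCs. Plagl1 gave log2 fold changes of -0.50 for derived PGCLCs over propagation iPSCs, -0.40 for derived over direct PGCLCs, -2.04 for Sertoli over granulosa cells, -1.04 for Sertoli cells over iPSCs, 1.00 for granulosa cells over iPSCs and -0.22 for propagation over dose-series iPSCs. Zdbf2, a paternally expressed zinc finger gene, had 191 ± 3.93 CPM in direct PGCLCs (highest) and 1.51 ± 0.0639 CPM in granulosa cells (lowest). Zdbf2 gave log2 fold changes of 0.34 for derived PGCLCs over propagation iPSCs, -0.16 for derived over direct PGCLCs, 2.32 for Sertoli over granulosa cells, -4.42 for Sertoli cells over iPSCs, -6.74 for granulosa cells over iPSCs and -0.28 for propagation over dose-series iPSCs. Zrsr1, a retrogene related to a splicing factor, had 14.2 ± 0.171 CPM in direct PGCLCs (lowest) and 28.9 ± 0.907 CPM in Sertoli cells (highest). Zrsr1 gave log2 fold changes of -0.55 for derived PGCLCs over propagation iPSCs, 0.16 for derived over direct PGCLCs, 0.54 for Sertoli over granulosa cells, 0.16 for Sertoli cells over iPSCs, -0.37 for granulosa cells over iPSCs and -0.16 for propagation over dose-series iPSCs. Grb10, an adaptor that restrains insulin signalling, had 507 ± 68 CPM in derived PGCLCs (highest) and 28.5 ± 1.36 CPM in propagation iPSCs (lowest). Grb10 gave log2 fold changes of 4.14 for derived PGCLCs over propagation iPSCs, 0.80 for derived over direct PGCLCs, -2.10 for Sertoli over granulosa cells, 0.85 for Sertoli cells over iPSCs, 2.95 for granulosa cells over iPSCs and -0.87 for propagation over dose-series iPSCs. Ddc, which encodes aromatic amino acid decarboxylase, had 0.630 ± 0.284 CPM in granulosa cells (lowest) and 25.96 ± 1.07 CPM in propagation iPSCs (highest). Ddc gave log2 fold changes of -2.00 for derived PGCLCs over propagation iPSCs, -0.85 for derived over direct PGCLCs, 0.71 for Sertoli over granulosa cells, -4.60 for Sertoli cells over iPSCs and -5.31 for granulosa cells over iPSCs.

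Among the remaining genes, the Prader-Willi region genes Ndn, Magel2 and Peg12 differed in where they were high. Ndn, the MAGE-family gene of the Prader-Willi region, had 55.5 ± 1.3 CPM in Sertoli cells (highest) and 3.997 ± 0.145 CPM in dose-series iPSCs (lowest). Ndn gave log2 fold changes of 2.70 for derived PGCLCs over propagation iPSCs, 3.79 for Sertoli cells over iPSCs and 3.74 for granulosa cells over iPSCs. Magel2, a MAGE-family neighbour of Ndn, had 13.8 ± 1.19 CPM in direct PGCLCs (highest) and 0 reads over the 3 libraries in granulosa cells (lowest). Magel2 gave a log2 fold change of 6.76 for derived PGCLCs over propagation iPSCs. A count of 0 allows up to 3 reads. Peg12, of the same region, had 24.2 ± 0.386 CPM in direct PGCLCs (highest) and 0.221 ± 0.0785 CPM in dose-series iPSCs (lowest). Peg12 gave log2 fold changes of 5.96 for derived PGCLCs over propagation iPSCs, -2.33 for Sertoli over granulosa cells, 2.54 for Sertoli cells over iPSCs and 4.87 for granulosa cells over iPSCs. Ube3a, a ubiquitin ligase imprinted chiefly in neurons, had 74.6 ± 4.22 CPM in derived PGCLCs (lowest) and 133 ± 0.872 CPM in granulosa cells (highest). Ube3a gave log2 fold changes of 0.64 for Sertoli cells over iPSCs, 0.72 for granulosa cells over iPSCs and -0.12 for propagation over dose-series iPSCs. Nnat, a small membrane protein gene, had 52.4 ± 5.53 CPM in derived PGCLCs (highest) and 3.79 ± 0.48 CPM in Sertoli cells (lowest). Nnat gave log2 fold changes of 3.16 for derived PGCLCs over propagation iPSCs, 0.30 for derived over direct PGCLCs, -2.84 for Sertoli over granulosa cells, -0.76 for Sertoli cells over iPSCs and 2.08 for granulosa cells over iPSCs. Blcap, which surrounds Nnat, had 21.9 ± 0.554 CPM in direct PGCLCs (lowest) and 40.9 ± 1.88 CPM in granulosa cells (highest). Blcap gave log2 fold changes of 0.32 for derived PGCLCs over propagation iPSCs, 0.58 for derived over direct PGCLCs, -0.35 for Sertoli over granulosa cells, 0.28 for granulosa cells over iPSCs and -0.36 for propagation over dose-series iPSCs. Gnas, which encodes the stimulatory G protein subunit, had 1138 ± 22.6 CPM in Sertoli cells (highest) and 109.9 ± 5.34 CPM in propagation iPSCs (lowest). Gnas gave log2 fold changes of 2.25 for derived PGCLCs over propagation iPSCs, 3.29 for Sertoli cells over iPSCs and 3.26 for granulosa cells over iPSCs. H13, the signal peptide peptidase gene, had 217 ± 3.09 CPM in granulosa cells (highest) and 30.3 ± 1.51 CPM in dose-series iPSCs (lowest). H13 gave log2 fold changes of 0.26 for derived PGCLCs over propagation iPSCs, -0.13 for derived over direct PGCLCs, -0.55 for Sertoli over granulosa cells, 2.29 for Sertoli cells over iPSCs and 2.84 for granulosa cells over iPSCs. Mcts2, a retrogene inside H13, had 4.71 ± 0.382 CPM in derived PGCLCs (highest) and 2.07 ± 0.136 CPM in granulosa cells (lowest). Mcts2 gave log2 fold changes of 0.42 for derived over direct PGCLCs, -1.06 for Sertoli cells over iPSCs and -1.07 for granulosa cells over iPSCs. Impact, a regulator of the GCN2 stress kinase, had 285 ± 5.88 CPM in direct PGCLCs (highest) and 78.4 ± 2.41 CPM in granulosa cells (lowest). Impact gave log2 fold changes of 0.14 for derived PGCLCs over propagation iPSCs, -0.56 for derived over direct PGCLCs, 0.90 for Sertoli over granulosa cells, -0.20 for Sertoli cells over iPSCs and -1.10 for granulosa cells over iPSCs. Slc38a4, an amino acid transporter gene, had 506 ± 51.7 CPM in derived PGCLCs (highest) and 0.377 ± 0.0598 CPM in Sertoli cells (lowest). Slc38a4 gave log2 fold changes of 3.22 for derived PGCLCs over propagation iPSCs, 0.35 for derived over direct PGCLCs, -3.23 for Sertoli over granulosa cells, -7.55 for Sertoli cells over iPSCs, -4.32 for granulosa cells over iPSCs and -0.49 for propagation over dose-series iPSCs. Trappc9, a vesicle tethering subunit gene, had 58.01 ± 1 CPM in Sertoli cells (highest) and 28.1 ± 0.724 CPM in dose-series iPSCs (lowest). Trappc9 gave log2 fold changes of -0.10 for derived PGCLCs over propagation iPSCs, -0.12 for derived over direct PGCLCs, 0.10 for Sertoli over granulosa cells, 1.04 for Sertoli cells over iPSCs, 0.94 for granulosa cells over iPSCs and 0.37 for propagation over dose-series iPSCs. The call of Trappc9 for derived PGCLCs over propagation iPSCs held in only 2 of 8 alternative settings. Peg13, a noncoding RNA inside Trappc9, had 32.6 ± 0.0536 CPM in granulosa cells (highest) and 1.91 ± 0.556 CPM in propagation iPSCs (lowest). Peg13 gave log2 fold changes of 1.08 for derived PGCLCs over propagation iPSCs, -0.94 for Sertoli over granulosa cells, 3.10 for Sertoli cells over iPSCs and 4.03 for granulosa cells over iPSCs. Dcn, the proteoglycan decorin, a stroma marker, had 52.2 ± 7.31 CPM in granulosa cells (highest) and 0 reads over the 3 libraries in propagation iPSCs (lowest). Dcn gave log2 fold changes of -2.19 for Sertoli over granulosa cells, 7.35 for Sertoli cells over iPSCs and 9.54 for granulosa cells over iPSCs. Dcn was the only one of these genes with 0 reads in propagation iPSCs, and 7 reads over the 3 libraries in derived PGCLCs passed the test against them.

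In iPSCs exposed to 1 µM BPS, 8 of 40 imprinted genes tested changed (adjusted p at most 0.05, limma), 7 higher and 1 lower, where 8.54% of all genes changed, 5.61% higher and 2.94% lower. At 50 µM 16 changed, 13 higher and 3 lower (26.4% of all genes, 13.1% higher and 13.3% lower), and at 100 µM 16 changed, 12 higher and 4 lower (30.7%, 15.3% higher and 15.4% lower). Median log2 fold changes of the 40 were 0.11, 0.13 and 0.16 in order of dose, and those of all genes were -0.01, 0.00 and 0.00. The 3 doses share their vehicle libraries, so changes that recur between doses are not separate evidence. Igf2, Plagl1, Peg10, Ndn, Meg3 and Rian rose and Mest fell at each dose. With no filter on low levels, 5 genes were called at 1 µM. In the same libraries, 3 of 8 PGC markers were lower at 1 µM and 4 at 50 and at 100 µM, with 0 higher (summed CPM 389 to 409 in vehicle, 324 to 371.5 at 1 µM, 316 to 344 at 50 µM and 342 to 357 at 100 µM), and 1, 3 and 3 of 10 pluripotency markers were higher in order of dose. Their part in these results was not tested.

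**Figure D2:**
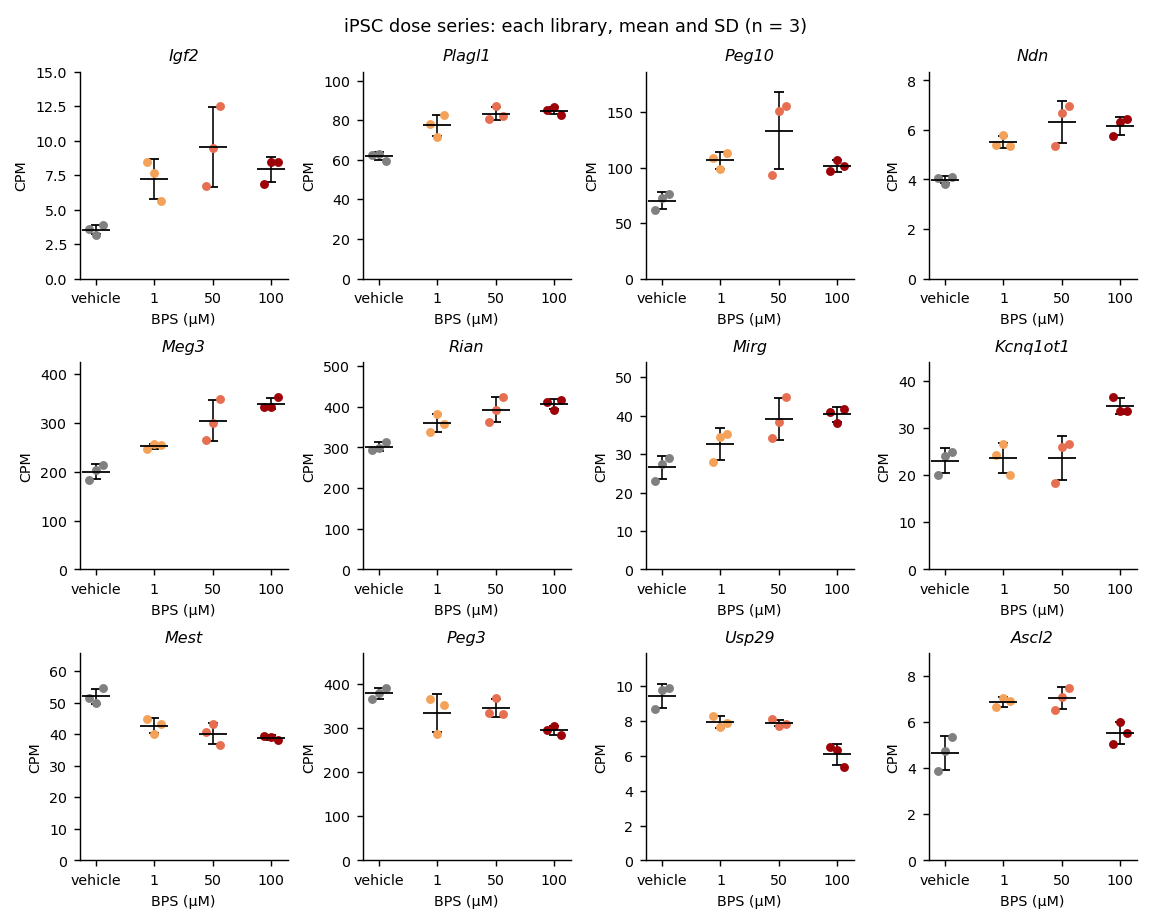
CPM of imprinted genes in the dose-series iPSCs, for vehicle and 1, 50 and 100 µM BPS from left to right, with 1 point per library and a line and bars for each group's mean and SD (n = 3). Igf2, Plagl1, Peg10 and Meg3 are higher and Mest is lower in every BPS library than in every vehicle library.

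Igf2 had 3.61, 3.16 and 3.87 CPM in vehicle, 8.42, 7.63 and 5.61 at 1 µM, 6.67, 9.45 and 12.5 at 50 µM and 6.86, 8.44 and 8.43 at 100 µM. All 9 BPS libraries lay above all 3 vehicle libraries, and Igf2 rose at each dose (at 1 µM, log2 fold change 1.00, SE 0.173, adjusted p = 0.00140, at 50 µM 1.38, adjusted p = 1.83e-05 and at 100 µM 1.15, adjusted p = 9.07e-05). H19 of the other parental copy had 3.93 ± 1.38 CPM in vehicle, 6.98 ± 2.65 at 1 µM, 6.16 ± 1.46 at 50 µM and 3.87 ± 1.38 at 100 µM, and did not pass at any dose (0.82, adjusted p = 0.0689 at 1 µM), with BPS and vehicle libraries overlapping. Igf2r, the receptor, did not pass either, with 89.01 ± 3.94 CPM in vehicle and 102 ± 1.75 at 100 µM. Ascl2, the trophoblast factor, had 3.89, 4.76 and 5.37 CPM in vehicle, 6.64, 7.07 and 6.94 at 1 µM, 6.53, 7.11 and 7.48 at 50 µM and 5.04, 6.02 and 5.54 at 100 µM. It rose at 1 µM (0.57, adjusted p = 0.00378) and 50 µM (0.60, adjusted p = 0.000730) and gave 0.25, adjusted p = 0.0958 at 100 µM, where libraries overlapped. Plagl1 had 62.6, 63.1 and 59.5 CPM in vehicle, 77.8, 71.7 and 82.4 at 1 µM, 80.7, 87.1 and 82.1 at 50 µM and 85.3, 86.5 and 82.8 at 100 µM. The 9 exposed libraries were higher than the 3 vehicle libraries and the rise passed at each dose (0.32, 0.43 and 0.46 on the log2 scale).

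Among the noncoding RNAs of chromosome 12, Meg3 had 183, 204 and 213 CPM in vehicle, 246, 256 and 255 at 1 µM, 266, 299.5 and 349.8 at 50 µM and 333, 333 and 353 at 100 µM. Its log2 fold changes were 0.34, adjusted p = 0.00791 at 1 µM, 0.60, adjusted p = 1.50e-05 at 50 µM and 0.77, adjusted p = 1.13e-06 at 100 µM. Rian, from the same maternal copy, had 293, 298 and 314 CPM in vehicle, 338, 383 and 358 at 1 µM, 364, 392 and 424 at 50 µM and 412, 393 and 416 at 100 µM, with log2 fold changes of 0.25, 0.38 and 0.43 in order of dose. Every BPS library exceeded every vehicle library for both genes. Mirg, the microRNA host further along, had 23.1, 27.5 and 28.9 CPM in vehicle, 27.9, 34.6 and 35.3 at 1 µM, 34.2, 38.3 and 44.8 at 50 µM and 41.02, 38.2 and 41.7 at 100 µM. It rose at 50 µM (0.56, adjusted p = 0.000442) and 100 µM (0.61, adjusted p = 0.000169) and gave 0.29, adjusted p = 0.0704 at 1 µM. Their paternal partner Dlk1 stayed under the minimum level in iPSCs and was not tested. At 1 µM Meg3 lost its call without vehicle replicate 1 (adjusted p = 0.0650), and so did Rian (adjusted p = 0.0710).

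Peg10 had 61.8, 72.9 and 76.4 CPM in vehicle, 108, 98.4 and 113 at 1 µM, 93.8, 151 and 156 at 50 µM and 96.7, 107 and 101 at 100 µM. It rose at each dose (0.60, adjusted p = 0.00575 at 1 µM, 0.89 at 50 µM and 0.54 at 100 µM), with no overlap between exposed and vehicle libraries. Sgce, which shares the promoter region, had 1.61, 2.07 and 2.01 CPM in vehicle, 2.46, 3.43 and 2.65 at 1 µM, 2.26, 3.45 and 3.67 at 50 µM and 2.01, 3.10 and 2.74 at 100 µM and passed at 50 µM (0.69, adjusted p = 0.0124), with 0.57 (adjusted p = 0.0717) at 1 µM and 0.45 (adjusted p = 0.0864) at 100 µM. Ppp1r9a of this cluster rose at 50 µM (0.31) and 100 µM (0.23). The gene that fell at each dose was Mest, which had 51.6, 49.8 and 54.7 CPM in vehicle, 44.9, 40.1 and 43.2 at 1 µM, 40.8, 43.1 and 36.5 at 50 µM and 39.5, 39.2 and 38.2 at 100 µM. Every exposed library was below every vehicle library (-0.28, adjusted p = 0.00873 at 1 µM, -0.38 at 50 µM and -0.42 at 100 µM). Its neighbour Copg2 did not pass at any dose (-0.02, -0.16 and -0.17).

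Ndn, the Prader-Willi region gene, had 4.07, 3.83 and 4.09 CPM in vehicle, 5.40, 5.79 and 5.36 at 1 µM, 5.35, 6.67 and 6.97 at 50 µM and 5.74, 6.31 and 6.45 at 100 µM. It rose at each dose (0.46, adjusted p = 0.0103 at 1 µM, 0.65 at 50 µM and 0.62 at 100 µM) without overlap, and the ligase gene Ube3a of that region, with 84.9, 79.03 and 79.9 CPM in vehicle, 72.7, 72.9 and 70.8 at 1 µM, 64.1, 68.9 and 57.7 at 50 µM and 79.6, 71.1 and 66.1 at 100 µM, fell at 50 µM (-0.36, adjusted p = 0.000720). Peg3 had 366, 379.6 and 391 CPM in vehicle, 367, 286 and 352 at 1 µM, 334, 368 and 332 at 50 µM and 295, 304 and 284 at 100 µM and fell at 100 µM (-0.36, adjusted p = 0.000944). Its partner Usp29, with 8.67, 9.79 and 9.90 CPM in vehicle, 8.31, 7.66 and 7.87 at 1 µM, 8.10, 7.71 and 7.86 at 50 µM and 6.53, 6.35 and 5.39 at 100 µM, fell at 50 µM (-0.26, adjusted p = 0.0417) and 100 µM (-0.63, adjusted p = 5.40e-05). In the Kcnq1ot1 cluster, Kcnq1ot1 had 20.1, 24.1 and 25.03 CPM in vehicle, 24.3, 26.6 and 20.1 at 1 µM, 18.4, 26.01 and 26.6 at 50 µM and 36.6, 33.6 and 33.7 at 100 µM and rose at 100 µM (0.59, adjusted p = 0.00100). Of the cluster's genes listed as maternally expressed, Cdkn1c (0.29) and Tspan32 (0.46, libraries overlapping) rose at 50 µM. Phlda2 (0.23, libraries overlapping) and Cd81 (0.16) rose at 100 µM, where Nap1l4 fell (-0.18). Which copy of each gene these cells express was not measured. Gnas rose at 50 µM (0.15) and 100 µM (0.16). Of the 16 calls at 50 µM, Cdkn1c, Tspan32, Sgce, Ppp1r9a, Usp29 and Gnas were each lost without at least 1 library, and their highest adjusted p was 0.116, 0.225, 0.0879, 0.0626, 0.130 and 0.143 in that order. At 100 µM the same held for Phlda2, Cd81, Ppp1r9a and Gnas, with 0.131, 0.101, 0.177 and 0.0793. Without replicate 3 of the 50 µM group, 10 genes were called at that dose.

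Between doses, 100 µM exceeded 1 µM in 2 of 40 genes (0.440% of all genes, 0.324% higher and 0.116% lower), both noncoding RNAs: Meg3 (log2 fold change 0.43, adjusted p = 0.0176) and Kcnq1ot1 (0.56, adjusted p = 0.0393). Meg3 lost that call without any 1 of 3 libraries (highest adjusted p 0.103) and Kcnq1ot1 without any 1 of 4 (highest 0.177), and no gene was called without any 1 of the 100 µM libraries. Between 50 and 1 µM limma called 0 imprinted genes (0.00612% of all genes), 8 had an unadjusted p below 0.05, and limma-voom called 0.

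**Figure D3:**
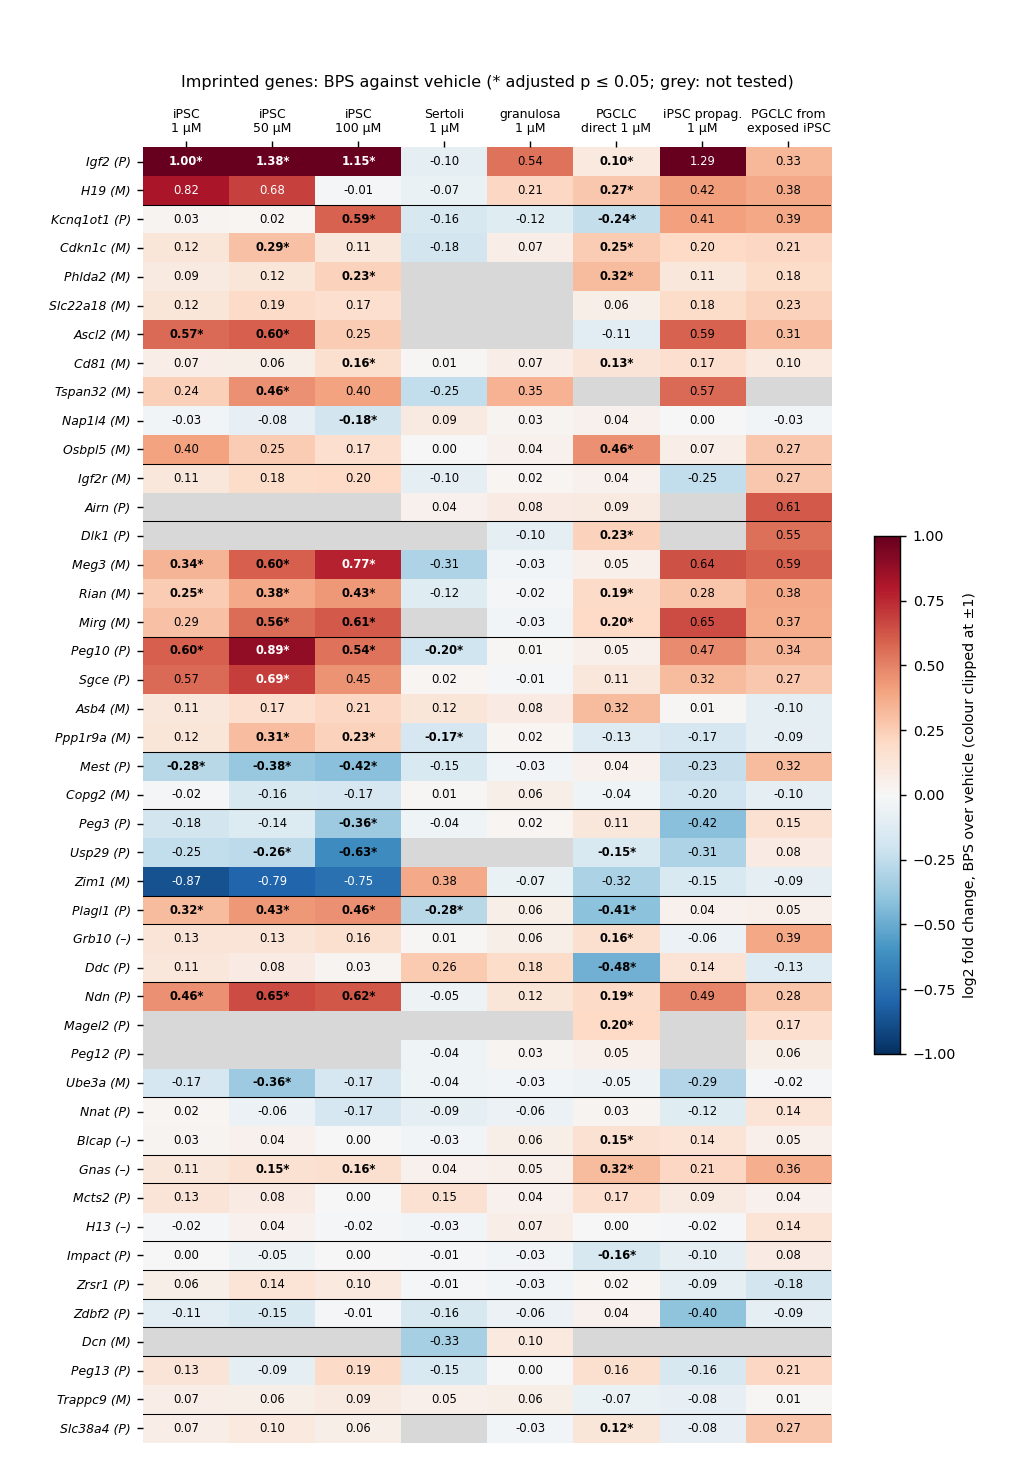
Log2 fold change of each imprinted gene (rows, by domain) for BPS over vehicle in each exposure (columns), with the values printed, called changes marked by a star and grey for genes not tested. Called rises of Igf2, Meg3, Rian, Peg10, Plagl1 and Ndn recur across the 3 iPSC doses, Plagl1 falls in direct PGCLCs and Sertoli cells, and granulosa cells, propagation iPSCs (all libraries) and derived PGCLCs hold no call.

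The propagation iPSCs received the same 1 µM dose in a separate experiment, with its own vehicle libraries. Limma called 0 of 40 imprinted genes with all 6 libraries (0.0128% of all genes), and limma-voom 0; 13 had an unadjusted p below 0.05, and 11 were called in a fit of all 42 libraries. Replicate 2 of the BPS group, the library farthest from its group, lay far below its partners for several of them: Peg3 had 274, 157 and 272 CPM with BPS, against 318, 305 and 287 with vehicle, and Plagl1 had 62.2, 42.6 and 61.5 CPM with BPS, against 52.8, 51.9 and 54.4 with vehicle. Without that library, 14 genes were called, 9 higher and 5 lower, and 9.64% of all genes were, 3.61% higher and 6.03% lower. That library was chosen because this count was the highest with 1 library left out. Without each of the other libraries in turn, 0 imprinted genes were called.

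Without replicate 2, Igf2 rose (1.25, adjusted p = 0.00856); over all libraries it had 1.46, 1.48 and 1.30 CPM with BPS, against 0.589, 0.587 and 0.506 with vehicle, and the fit of all 6 gave 1.29, adjusted p = 0.199. Ascl2 had 3.84, 3.53 and 3.29 CPM with BPS, against 2.65, 1.91 and 2.56 with vehicle (0.59 without replicate 2, 0.59, adjusted p = 0.345 with it). For the maternal RNAs of chromosome 12, Meg3 had 163, 207 and 162 CPM with BPS, against 107, 109 and 124 with vehicle (0.53 without replicate 2, 0.64, adjusted p = 0.299 with it), Rian 261, 221 and 239.5 CPM with BPS, against 193, 199.7 and 201 with vehicle (0.34 and 0.28) and Mirg 24.8, 32.4 and 23.3 CPM with BPS, against 16.1, 15.6 and 19.2 with vehicle (0.51 and 0.65). Peg10 had 43.01, 35.7 and 41.5 CPM with BPS, against 29.1, 30.2 and 27.3 with vehicle (0.55 and 0.47), and Ndn 6.25, 7.28 and 5.96 CPM with BPS, against 4.53, 4.43 and 4.90 with vehicle (0.40 and 0.49). In each of these genes every BPS library, replicate 2 included, lay above every vehicle library. The genes were picked by their calls without replicate 2, so separation of the other libraries was largely fixed by that choice. How many of all genes were separated in this way was not counted. The other genes called without replicate 2 were Plagl1 (0.22) and Cd81 (0.11), higher, and Mest (-0.14), Copg2 (-0.16), Peg3 (-0.15), Ube3a (-0.20) and Zdbf2 (-0.16), lower. With all libraries, Plagl1 gave 0.04, Cd81 0.17, Mest -0.23, Copg2 -0.20, Peg3 -0.42, Ube3a -0.29 and Zdbf2 -0.40.

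The dose-series and propagation iPSCs share no libraries. At 1 µM, 31 of 40 imprinted genes moved the same way in both (77.5%), against 66.8% of 15438 genes in all. The 8 genes called in the dose series all moved the same way in the propagation experiment, as did 92.0% of the 1344 genes called there and tested in both. Without replicate 2, 34 of 40 (85.0%) imprinted genes and 71.7% of all genes moved the same way. That library was left out because the most imprinted genes were called without it, so the 85.0% is not independent of that choice. The test of the difference between the responses called 0 imprinted genes (0% of all genes called; 1 imprinted gene at an unadjusted p below 0.05).

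**Figure D4:**
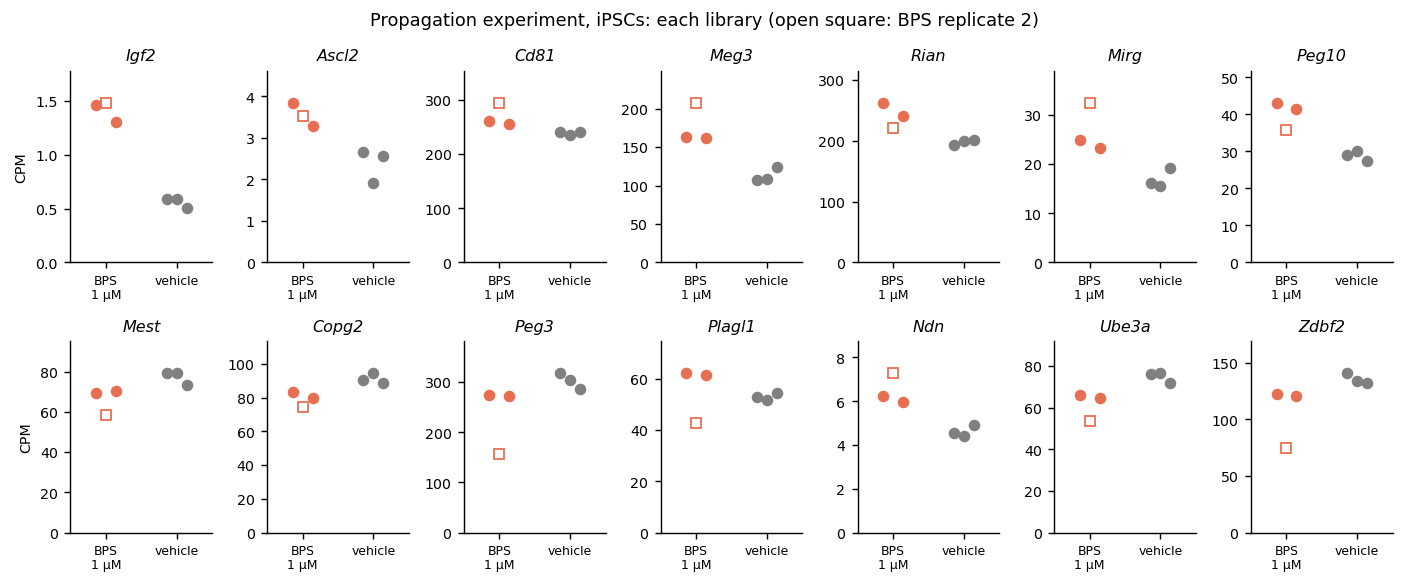
CPM in propagation iPSCs of the 14 imprinted genes called without BPS replicate 2, BPS at 1 µM left of vehicle, with 1 point per library and BPS replicate 2 as an open square. Igf2 and Meg3 are higher in the BPS libraries, and replicate 2 lies well below its 2 partners for Peg3, Plagl1 and Zdbf2.

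In PGCLCs derived from the exposed iPSCs, limma called 0 of 43 imprinted genes (0% of all genes), limma-voom called 0, and 11 had an unadjusted p below 0.05. In a fit of all 42 libraries 4 were called, and 721 genes in all. The median log2 fold change was 0.18 for the imprinted genes and 0.00 for all genes. Igf2 had 3005, 2714 and 2030.3 CPM in PGCLCs from exposed iPSCs, against 1788, 2419.5 and 1938 in PGCLCs from vehicle iPSCs (log2 fold change 0.33, SE 0.155, adjusted p = 0.346). H19 had 2404, 2663 and 1962 CPM in PGCLCs from exposed iPSCs, against 1686, 1982 and 1702 in PGCLCs from vehicle iPSCs (0.38, adjusted p = 0.215). Libraries of the groups overlapped for both genes. Meg3 had 261, 325 and 260.0 CPM in PGCLCs from exposed iPSCs, against 193, 176 and 189 in PGCLCs from vehicle iPSCs (0.59, adjusted p = 0.194), and Plagl1 had 39.6, 34.4 and 43.1 CPM in PGCLCs from exposed iPSCs, against 40.5, 32.5 and 39.9 in PGCLCs from vehicle iPSCs (0.05, adjusted p = 0.837). Ndn gave 0.28, adjusted p = 0.370, Peg10 0.34, adjusted p = 0.324 and Mest 0.32, adjusted p = 0.266. Beside these values, the summed CPM of 10 pluripotency markers was 2218 to 3291 in PGCLCs from exposed iPSCs and 2782 to 3839 in those from vehicle iPSCs; its part in them was not tested. The response of derived PGCLCs did not pass a difference from that of propagation iPSCs in any imprinted gene (0.00580% of all genes; 8 at an unadjusted p below 0.05), and 4 were called in a fit of all 42 libraries.

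In directly exposed PGCLCs, 20 of 43 imprinted genes changed, 15 higher and 5 lower, where 26.6% of all genes changed, 15.4% higher and 11.3% lower, and limma-voom called 19. With no filter 11 were called, and in a fit of all 42 libraries 5, Plagl1, Gnas, Impact and Osbpl5 among them. With libraries rescaled to their upper quartile, 15 genes were called, 9 higher and 6 lower. The changes were small: the median log2 fold change was 0.06 (0.02 over all genes), and the called values ran between -0.48 and 0.46. All 7 called genes listed as maternally expressed were higher (7 of 18 tested), whereas the 10 called genes listed as paternally expressed were 5 higher and 5 lower (of 21). Plagl1 and Ddc fell, and H19, Gnas and members of the Kcnq1ot1 cluster rose.

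Plagl1 had 35.5, 37.4 and 38.9 CPM with BPS, against 48.5, 50.1 and 50.2 with vehicle (log2 fold change -0.41, SE 0.0440, adjusted p = 9.90e-06). This zinc finger gene, which rose in exposed iPSCs, was lower in every BPS library here. Ddc, the decarboxylase gene, had 8.99, 8.16 and 8.04 CPM with BPS, against 12.1, 11.2 and 11.97 with vehicle (-0.48, adjusted p = 0.000307), and its domain partner Grb10 had 295, 349 and 329 CPM with BPS, against 286, 294 and 289.9 with vehicle (0.16, adjusted p = 0.0161), so the pair moved in opposite directions. Gnas had 595, 659.9 and 618 CPM with BPS, against 486, 502 and 515 with vehicle (0.32, adjusted p = 1.98e-05). H19 had 1408, 1534 and 1483 CPM with BPS, against 1222, 1235 and 1201 with vehicle (0.27, adjusted p = 2.38e-05), and its paternal partner Igf2 had 745, 801 and 783 CPM with BPS, against 718, 728 and 719 with vehicle (0.10, adjusted p = 0.0181). BPS libraries lay above vehicle libraries for both.

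In the Kcnq1ot1 cluster Kcnq1ot1 itself was lower and 4 of the 7 genes listed as maternally expressed and tested were higher. Over all genes, 15.4% were higher and 11.3% lower, and any link between these changes was not tested. Kcnq1ot1 had 20.2, 19.5 and 18.6 CPM with BPS, against 24.99, 22.8 and 20.99 with vehicle (-0.24, adjusted p = 0.0139). Cdkn1c, the p57 gene, had 150.1, 158 and 158 CPM with BPS, against 127, 130.0 and 134 with vehicle (0.25, adjusted p = 7.57e-05), and Phlda2 had 68.3, 70.1 and 70.7 CPM with BPS, against 54.2, 55.4 and 57.98 with vehicle (0.32, adjusted p = 3.00e-05). Osbpl5 had 7.2, 8.11 and 8.37 CPM with BPS, against 5.99, 5.79 and 5.43 with vehicle (0.46, adjusted p = 0.00206), and Cd81 had 199, 199 and 195 CPM with BPS, against 179, 184 and 181 with vehicle (0.13, adjusted p = 0.00453). These 4 genes, listed as maternally expressed, were higher in each BPS library than in each vehicle library. Which copy of them these cells express was not measured. In a fit of all 42 libraries the calls of Kcnq1ot1, Cdkn1c, Phlda2 and Cd81 were lost, and that of Kcnq1ot1 also with no filter. The others of the cluster did not pass: Slc22a18 gave 0.06, Ascl2 -0.11 and Nap1l4 0.04.

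On chromosome 12, Rian had 241, 256 and 249 CPM with BPS, against 216, 219 and 221 with vehicle (0.19, adjusted p = 0.000420), Mirg rose by 0.20 on the log2 scale and Dlk1 of the other copy had 30.3, 30.5 and 30.2 CPM with BPS, against 25.3, 28.8 and 23.9 with vehicle (0.23, adjusted p = 0.0118), while Meg3 gave 0.05, adjusted p = 0.447. Impact, the GCN2 regulator, had 245, 264 and 255 CPM with BPS, against 281, 281 and 292 with vehicle (-0.16, adjusted p = 0.00197). Slc38a4 (0.12), Ndn (0.19), Blcap (0.15) and Magel2 (0.20, libraries overlapping) rose, and Usp29 (-0.15) fell, with its partner Peg3 at 0.11, adjusted p = 0.128. Nnat, inside Blcap, gave 0.03, adjusted p = 0.702. The other 10 calls held without each library in turn. Igf2, Kcnq1ot1, Dlk1, Mirg, Usp29, Grb10, Ndn, Magel2, Blcap and Slc38a4 each lost theirs without at least 1, at adjusted p values of up to 0.192 (Magel2), and 12 calls were left when replicate 1 or 3 of the vehicle group or replicate 3 of the BPS group was left out. In the same libraries all 10 pluripotency markers were lower with BPS (summed CPM 3258 to 3580 with BPS, 4150 to 4213 with vehicle), 5 of 8 germ cell (PGC) markers were lower and 0 higher (summed CPM 295 to 334 with BPS, 356.5 to 369 with vehicle), and 2 of 7 fibroblast and stroma markers were higher (summed CPM 124 to 137.8 with BPS, 107.1 to 113.6 with vehicle). Their part in these results was not tested.

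The responses of direct PGCLCs and dose-series iPSCs to 1 µM BPS were compared in 1 fit of 12 libraries. Of 44 imprinted genes, 9 differed, 3 with a higher and 6 with a lower log2 fold change in PGCLCs (13.4% of all genes, 6.64% higher and 6.75% lower). With libraries rescaled to their upper quartile, 9 differed, 0 higher and 9 lower, and the differences of Mest, Phlda2 and Gnas no longer passed; in a fit of all 42 libraries 2 differed. Igf2, Plagl1, Ascl2, Ddc, Peg10 and Meg3 had the lower response in PGCLCs, and Mest, Phlda2 and Gnas the higher one. Cell type, experiment and the time after exposure (8 hours in PGCLCs, 24 hours in iPSCs) cannot be told apart here.

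Plagl1 fell in PGCLCs (-0.41) and rose in iPSCs (0.32), a difference of -0.73, adjusted p = 3.07e-05. Igf2 rose in both, by 0.10 in PGCLCs and 1.00 in iPSCs (difference -0.90, adjusted p = 0.00141). Peg10 gave 0.05 in PGCLCs and 0.60 in iPSCs (difference -0.56, adjusted p = 0.00318), and Mest gave 0.04 in PGCLCs and -0.28 in iPSCs (difference 0.32, adjusted p = 0.0176). The vehicle levels of these genes also differed between the cells. Igf2 averaged 722 ± 5.17 CPM in direct PGCLCs and 3.55 ± 0.358 in iPSCs with vehicle. Differences that did not hold without each library were those of Phlda2 (highest adjusted p 0.108), Ascl2 (0.0595), Meg3 (0.0806), Mest (0.0524) and Gnas (0.0794); 4 genes were called without direct PGCLC BPS replicate 2 and 15 without replicate 2 of the iPSCs at 1 µM.

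**Figure D5:**
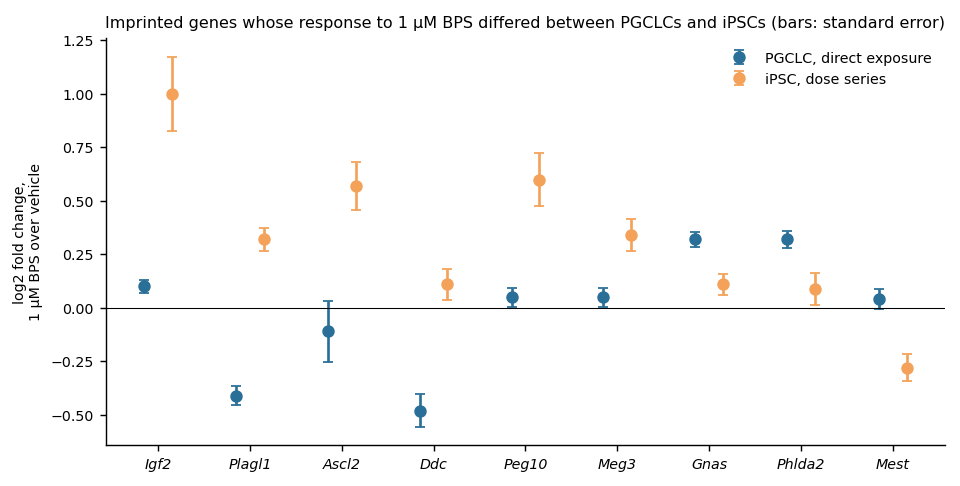
Log2 fold change for 1 µM BPS over vehicle in direct PGCLCs (left point of each pair) and dose-series iPSCs for the 9 imprinted genes whose responses differed, with bars for the standard error. Plagl1 lies below 0 in PGCLCs and above 0 in iPSCs, and Mest lies below 0 in iPSCs.

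In Sertoli cells exposed to 1 µM BPS, 3 of 37 imprinted genes changed and all were lower, where 5.24% of all genes changed, 3.76% higher and 1.48% lower. Plagl1 had 25.6, 24.5 and 24.3 CPM with BPS, against 29.4, 31.4 and 29.3 with vehicle (log2 fold change -0.28, SE 0.0536, adjusted p = 0.00889). Peg10 had 275, 287 and 286 CPM with BPS, against 305, 338 and 332 with vehicle (-0.20, adjusted p = 0.00696), and Ppp1r9a of the same chromosome 6 cluster had 159, 156 and 159.8 CPM with BPS, against 171, 181 and 184 with vehicle (-0.17, adjusted p = 0.00940). BPS libraries lay below vehicle libraries for each. Sgce, the partner of Peg10, gave 0.02, adjusted p = 0.788. None of the 3 held without each library in turn, with no filter or in a fit of all 42 libraries, and 0 genes were called without vehicle replicate 2 (adjusted p = 0.0609 for Plagl1 and 0.0601 for Ppp1r9a). The summed CPM of the 10 Sertoli markers was 7193 to 8186 with BPS and 8505 to 8769 with vehicle, and its part in these results was not tested. In granulosa cells limma called 0 of 40 imprinted genes (2.60% of all genes, 1.95% higher and 0.656% lower), limma-voom called 0, and 5 had an unadjusted p below 0.05. Plagl1, at its highest level in these cells, had 125, 135 and 126 CPM with BPS, against 125, 119 and 127 with vehicle (0.06, adjusted p = 0.419), Peg10 gave 0.01, adjusted p = 0.945 and Grb10 0.06, adjusted p = 0.269.

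By expressed copy, the calls in iPSCs were 4 higher and 1 lower of 17 paternally expressed genes and 3 higher and 0 lower of 19 maternally expressed genes at 1 µM, 5 higher and 2 lower against 7 higher and 1 lower at 50 µM, and 5 higher and 3 lower against 6 higher and 1 lower at 100 µM. Over all genes, 5.61% were higher and 2.94% lower at 1 µM, 13.1% and 13.3% at 50 µM and 15.3% and 15.4% at 100 µM. Of the factors that keep imprints, 2 of 15 tested rose and 2 fell in iPSCs at 1 µM, and 2 rose and 5 fell at both 50 and 100 µM, where 8.54%, 26.4% and 30.7% of all genes changed in order of dose. Zfp57, the factor that binds the motif shown above, had log2 fold changes of 0.30, 0.50 and 0.63 in order of dose, and 100 µM exceeded 1 µM by 0.33. Dnmt3l, a partner of the enzymes that set imprints in germ cells, gave 0.82, 0.81 and 0.66, and Dppa3, which protects methylation in the zygote, fell (-0.32, -0.48 and -0.57). Ctcf, the insulator protein that binds the control region of Igf2 and H19, fell at 1 µM (-0.17) and 100 µM (-0.26), and Hells, a chromatin remodeller, at 50 µM (-0.36). In direct PGCLCs 2 of 15 tested on that list rose and 2 fell, a share near the 26.6% of all genes that changed. They were Zfp42 (-0.36) and Eed (-0.11), lower, and Arid4a (0.30) and Arid4b (0.23), higher. Zfp42 is also among the 10 pluripotency markers, which were all lower there. Arid4b fell in Sertoli cells (-0.15), 1 of 12 tested, where 5.24% of all genes changed.

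A further list of imprinted genes from the same kinds of clusters had 4 higher and 1 lower of 19 at 1 µM in iPSCs (8.54% of all genes changed), and 5 higher and 1 lower at 50 and at 100 µM, a share near those of all genes (26.4% and 30.7%). Pon3 and Pon2, the paraoxonase genes next to Peg10, rose at 1 µM (0.66 and 0.52), 50 µM (0.85 and 0.80) and 100 µM (0.69 and 0.77), as did Rtl1 (0.35, 0.46 and 0.59), the retrotransposon-like gene of the Dlk1-Dio3 cluster, and Qpct (0.62, 0.69 and 0.74). In direct PGCLCs, where 26.6% of all genes changed, 1 rose and 2 fell of 20: Casd1 (0.20), Jade1 (-0.59) and Sfmbt2 (-0.13). Against the same shares of all genes, 0 of 10 neighbours of Dlk1-Dio3 not known as imprinted changed at 1 µM, 1 at 50 µM (Degs2, 0.33) and 2 at 100 µM (Slc25a47, 0.43, and Wars, -0.14). Of the neighbours of Igf2 and H19 tested, 2 in iPSCs and 3 in granulosa cells, Ctsd rose at each dose (0.19, 0.22 and 0.19) and in granulosa cells (0.12). In direct PGCLCs 4 of the 10 neighbours of Dlk1-Dio3 changed (26.6% of all genes). Degs2 (0.51), Evl (0.17) and Yy1 (0.16) rose and Hsp90aa1 (-0.14) fell. Beside Igf2 and H19, 1 of 5 neighbours tested there changed, Lsp1, which rose (0.31).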

How the data were processed

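RNA was sequenced from 42 libraries. Per the methods and the labels, the authors prepared poly(A) libraries that keep the strand, ran FastQC on the reads, mapped them to mm10 (Rsubread) and normalized the counts in edgeR. The deposited values are log2 CPM. The annotation, strand setting and any filter were not given in the sources used here. A value of -5.00 stands for 0 reads, since 0.0313 CPM had been added before the log. Undoing the log turned at least 99.9% of each library's values into whole reads (tolerance 0.05 reads), and the scale factors were 0.877 to 1.11. Differences between log2 values understate the change of low genes. Values per library are CPM without the added amount.

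Every gene with 0.5 CPM in at least 3 libraries of a fit was tested with limma 3.58.1 (trend) in R 4.3.3, with Benjamini-Hochberg adjustment over all genes tested and a threshold of 0.05. The 3 doses and their vehicle shared 1 fit of 12 libraries, the 6 vehicle groups 1 fit of 18, each difference between responses 1 fit of 12 and the other exposures 1 fit of 6. Contrasts are BPS minus vehicle. Tables and plots used Python 3.11.15 with pandas 2.3.3, numpy 2.4.6 and matplotlib 3.10.9. The step was tested on simulated data. Any imprinted gene of the list could be named; each called one is named, up to 12 per comparison with the smallest adjusted p get values in every library, and up to 4 called genes of each further list are named. The imprinted genes and further lists were chosen with earlier results of these data known. Alternatives were another amount added before the log (0.25 or 1 CPM), no filter or one of 5 CPM, rescaling by median ratios or the upper quartile, a replicate block, limma-voom on the recovered reads, all 42 libraries or only those compared, each library left out in turn and, chosen after seeing the data, the second rows added to the first. Gene positions and sequences are RefSeq, GRCm38.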

Additional observations from a re-analysis of the deposited data

Results flagged for a closer look

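Of the imprinted genes, 9 were singled out because their responses to 1 µM BPS differed between direct PGCLCs and dose-series iPSCs by an interaction test in limma over 12 libraries. The difference in log2 fold change, PGCLCs minus iPSCs, was -0.90 for Igf2 (adjusted p = 0.00141), -0.73 for Plagl1 (3.07e-05), -0.67 for Ascl2 (0.0228), -0.59 for Ddc (0.00180), -0.56 for Peg10 (0.00318) and -0.29 for Meg3 (0.0276). It was 0.32 for Mest (0.0176), 0.23 for Phlda2 (0.0428) and 0.21 for Gnas (0.0288). Ddc gave -0.48 in PGCLCs (adjusted p = 0.000307) and 0.11 in iPSCs (adjusted p = 0.380). Cell type, experiment and hours after exposure cannot be told apart.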

How the results depend on the processing

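Counts of called imprinted genes were recomputed under each alternative. For single genes called in some comparison, 3655 of 3975 values kept their direction and call, 319 kept the direction without passing and 1 reversed: Copg2 in Sertoli cells against iPSCs, which gave -0.03 with upper-quartile scaling and 0.09 otherwise. Counts moved with no filter (5 in iPSCs at 1 µM, 0 in Sertoli cells, 11 in direct PGCLCs and 0 for 100 against 1 µM) and with all 42 libraries in 1 fit (5 in direct PGCLCs, 11 in propagation iPSCs, 0 in Sertoli cells, 4 in derived PGCLCs, 1 for 100 against 1 µM, 2 for the response of direct PGCLCs against iPSCs and 4 for that of derived PGCLCs against propagation iPSCs). For 100 against 1 µM the count was 1 with upper-quartile scaling and 1 with only the 6 libraries compared. The cause was not tested.

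Without 1 library at a time, counts were 6 to 11 in iPSCs at 1 µM, 10 to 16 at 50 µM, 12 to 18 at 100 µM, 0 to 5 in Sertoli cells, 12 to 22 in direct PGCLCs, 0 to 14 in propagation iPSCs, 0 to 1 for 50 against 1 µM, 0 to 4 for 100 against 1 µM, 19 to 27 for derived against direct PGCLCs, and 4 to 15 for the response of direct PGCLCs against iPSCs; in granulosa cells, derived PGCLCs and the other responses they stayed at 0. Among vehicle groups they were 35 to 36 for Sertoli against granulosa cells, 41 to 43 for Sertoli cells against iPSCs, 42 to 43 for granulosa cells against iPSCs, 35 to 38 for derived PGCLCs against propagation iPSCs and 18 to 19 for propagation against dose-series iPSCs.

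Replicate numbers did not pair the samples. Same-numbered deviations were not all correlated above 0.1 in any comparison, and in none did every sample correlate best with its own number. With the replicate block, limma called 11, 16 and 18 genes in iPSCs in order of dose, 21 in direct PGCLCs, 0 in propagation iPSCs, 0 in derived PGCLCs, 4 in Sertoli cells, 0 in granulosa cells, 0 for 50 against 1 µM, 3 for 100 against 1 µM, 38 for derived PGCLCs against propagation iPSCs and, chosen after seeing the data, 8 for the response of direct PGCLCs against iPSCs and 0 for the other responses.

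Over all genes, upper-quartile scaling moved the share of calls that were higher: 78.8%, 65.01% and 63.9% in iPSCs in order of dose, against 65.6%, 49.6% and 49.8% as reported, 40.4% against 71.7% in Sertoli cells, 54.8% against 74.8% in granulosa cells, 41.1% against 57.7% in direct PGCLCs and 25.8% against 49.6% for the response of direct PGCLCs against iPSCs. With median ratios it was 56.7% in Sertoli cells and 53.96% in granulosa cells. Upper-quartile scaling moved the median of all genes to -0.16 in Sertoli cells against iPSCs. With no filter, calls over all genes were 795 in iPSCs at 1 µM (1397 with it), 9 in granulosa cells (409), 6 in Sertoli cells (820) and 2705 in direct PGCLCs (4354); with all 42 libraries they were 38 in granulosa cells, 207 in Sertoli cells, 1619 in direct PGCLCs, 2046 in propagation iPSCs (2), 721 in derived PGCLCs (0) and 1247 for the response of direct PGCLCs against iPSCs (2325).

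Groups of 3 cultures limit every test, and genes of few reads (Zim1, Tspan32, Asb4, Airn, Magel2) the most. Adding the second rows of Igf2r, Airn, Dlk1, Meg3 and Rian, chosen after seeing the data, moved no count by over 1.5 times. Reads of overlapping genes and the parental copies stayed unresolved.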
